A study of Mus musculus with 7 samples.

Results

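Nucleoporins and the receptors that carry proteins and RNA through the nuclear pore were examined in the cerebral cortex of C57BL/6 mice, in young adults and at embryonic day 17. The members were the genes of the deposited table whose symbols begin with Nup and a number, or name a numbered importin (Ipo), exportin (Xpo, with Xpot), karyopherin alpha (Kpna), transportin (Tnpo) or Ran-binding protein (Ranbp), together with Kpnb1. This gave 51 of the 36666 genes in the table, and 50 of them had reads in enough samples to be tested. There were 3 young adult and 4 embryonic samples of cerebral cortex, all of 1 strain, with no treatment or allele named in the labels, and mRNA was sequenced. The labels do not say whether a sample came from 1 animal, and the p-values therefore cover only the spread among these libraries, which may be technical.

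The nuclear pore complex is a ring-shaped channel through the nuclear envelope, built from many copies of its nucleoporins. An outer ring (the Y complex) and an inner ring form its scaffold, membrane nucleoporins anchor it, nucleoporins with phenylalanine-glycine repeats line or fill the channel, and filaments reach into the cytoplasm and a basket into the nucleus. Importin beta family receptors carry cargo inward, some of them through importin alpha adaptors that read the classical nuclear localization signal, and exportins carry cargo outward. The small GTPase Ran, bound to GTP in the nucleus, releases import cargo and joins exportins to theirs. Scaffold nucleoporins are known as long-lived proteins in nondividing cells such as neurons, and importins are also known to carry signals from axons and synapses to the nucleus.

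Levels are given as reads per 1000000 reads in genes (CPM), or as CPM per 1000 bases of exon (RPKM) where different genes are compared. Reads in genes numbered between 18444155 and 23606472 per sample. Differences are adult minus embryonic means on the deposited log2-like scale, on which 1 is close to a 2-fold change for well expressed genes and less is recorded for genes with few reads. A gene is called higher or lower where limma's adjusted p, taken over all 22828 genes tested, was under 0.05. Neuron markers had reads in both groups. All 7 mature neuron markers were higher in adult cortex (sums of 9703 to 10696 CPM in adult and 612 to 708 CPM in embryonic samples). All 7 young neuron markers were lower (sums of 933 to 1138 CPM in adult and 6460 to 6627 CPM in embryonic samples). The 10 markers of dividing cells were all lower in adult cortex and summed to between 12.5 and 18.3 CPM in adult and between 401 and 588 CPM in embryonic samples. Of 9 markers of radial glia and intermediate progenitors, 7 were lower and 1 was higher in adult cortex. Their sum was 647 to 688 CPM in adult and 1180.3 to 1315.5 CPM in embryonic samples. Most of the adult sum came from the higher marker, Slc1a3, at 526 ± 38.2 CPM in adult and 133 ± 6.00 CPM in embryonic cortex (SD, n = 3 and n = 4). All markers of astrocytes (6 of 6), oligodendrocytes (6 of 6), microglia (6 of 6) and choroid plexus (5 of 5) were higher in adult cortex. Those of choroid plexus summed to 587 to 721 CPM in adult and 0.976 to 1.62 CPM in embryonic samples, so adult samples may hold some of that tissue. Of the endothelial markers 4 of 6 were higher and 1 was lower, and of the erythroid markers 3 of 5 were lower. No marker on these lists was at 0 in every sample of a group. In bulk samples such as these, fewer cells of a type and less RNA per cell cannot be told apart, and what part the mixture of cells had in the differences below was not tested.

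Most members were lower in adult cortex. Of the 50 tested, 37 were lower (74.0%, against 33.9% of all genes tested) and 6 were higher (12%, against 35.8% of all genes tested), and 7 were not called. The median difference was -0.59 over the members and 0.03 over all genes tested. For 43 members the adult and embryonic values did not overlap on the deposited scale, while 68.9% of all genes tested had no overlap. The members' reads summed to 3007.4, 2834.2 and 2948.3 CPM in the adult samples and to 4241.8, 4285.9, 4050.7 and 4424.4 CPM in the embryonic samples, so every adult sum was below every embryonic sum. Centring each sample on its median moved the median of all genes by -0.18, and 40 members were then lower and 4 were higher. The calls over all genes shifted the same way, with 43.6% of the called genes higher after centring, against 51.4% before. Among the lower members 14 differed by at least 1 on the deposited scale, which is 28.0% of the members, against 15.6% of all genes tested. None of the 6 higher members differed by as much as 1, whereas 21.9% of all genes tested were higher in adult cortex by at least 1.

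**Figure D1:**
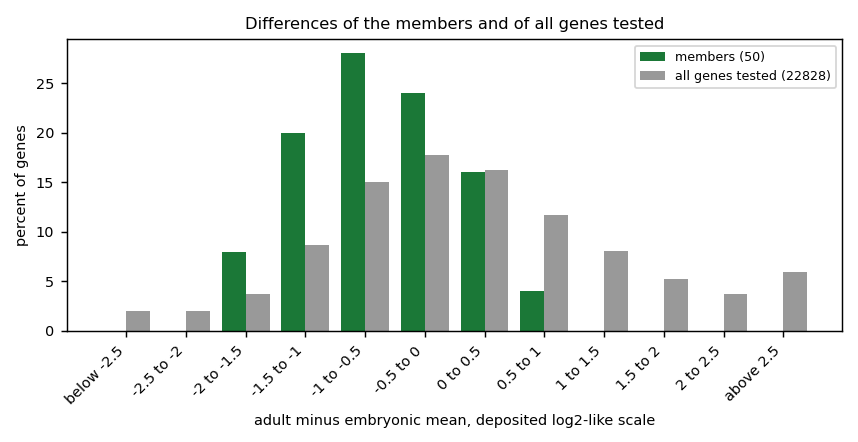
Percent of genes (vertical axis) in each range of the adult minus embryonic difference on the deposited log2-like scale (horizontal axis), for the 50 members tested and for all 22828 genes tested. The members lie between -2 and 1, with 28.0% of them between -1 and -0.5, and none in the ranges above 1 where all genes tested still have a long tail.

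The scaffold of the pore was lower in adult cortex throughout. All 6 members of the outer ring, the Y-shaped complex that coats the membrane on both faces of the pore, were lower, with a median difference of -1.27. Nup43, a propeller-shaped subunit of that complex, had 2.09, 2.67 and 2.02 CPM in adult samples, against 8.46, 9.43, 8.38 and 10.4 CPM in embryonic samples. Every adult value was far below every embryonic value, and the difference was -1.73 ± 0.13 (SE, limma adjusted p = 4.54e-08), a 4.05-fold lower mean CPM. The other 5 differed by -1.48 (Nup107), -1.37 (Nup160), -1.18 (Nup37), -1.04 (Nup85) and -0.54 (Nup133). Nup133 was thus the outer ring subunit that differed least in its estimate, at 30.9 ± 2.05 CPM in adult and 48.1 ± 2.93 CPM in embryonic cortex (SD, n = 3 and n = 4).

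All 5 inner ring members were lower as well, with a median difference of -1.38. Nup205, a large solenoid protein of the inner ring, showed the largest difference of all members, with 25.0, 25.5 and 26.5 CPM in adult samples against 104 CPM, 103 CPM, 103 CPM and 117 CPM in embryonic samples. The adult values lay close together, and the difference was -1.94 ± 0.08 (SE, limma adjusted p = 4.29e-11), a 4.16-fold lower mean. Nup188, its paralog, averaged 18.8 ± 0.615 CPM in adult and 62.3 ± 4.14 CPM in embryonic cortex (SD, n = 3 and n = 4), a difference of -1.60. Nup155, which links the inner ring to the rest of the scaffold, differed by -1.38, Nup35, a small membrane-binding subunit also called Nup53, by -0.80, and Nup93, the subunit that holds the inner ring together, by -0.61. Per length, Nup205 stood at 0.519 ± 0.0369 times the Nup93 level in adult samples and at 1.32 ± 0.161 times that level in embryonic samples (SD of the RPKM ratio, n = 3 and n = 4). That pair was chosen after the values were seen.

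Both members with a membrane-spanning role were lower. Nup210, also called gp210, a membrane-spanning protein known for its cell-type-restricted expression and for a role in muscle and neural differentiation in mouse cells, averaged 32.0 ± 2.80 CPM in adult and 71.2 ± 3.43 CPM in embryonic cortex (SD, n = 3 and n = 4), a difference of -1.05. Its relative Nup210l was scarce, with 0.698, 0.763 and 0.396 CPM in adult samples against 3.20, 2.26, 2.35 and 3.0 CPM in embryonic samples. The groups did not overlap, and the difference was -1.64 ± 0.21 (SE, limma adjusted p = 8.24e-06) at 9 to 18 reads per adult sample.

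Of the 4 central channel members, 3 were lower, with a median of -0.63. Nup54 had 11.6, 11.1 and 9.59 CPM in adult samples and 28.2, 28.9, 27.3 and 32.3 CPM in embryonic samples, again without overlap, and differed by -1.30 ± 0.10 (SE, limma adjusted p = 3.06e-08). Its partner in the channel, Nup62, differed by -0.82, and Nup98, a mobile nucleoporin that also occurs inside the nucleus, by -0.44. Nup62cl, a relative of Nup62, was scarce, at 0.115 ± 0.0472 CPM in adult and 0.116 ± 0.0730 CPM in embryonic cortex (SD, n = 3 and n = 4) and was not called (0.09 ± 0.40, SE).

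At the cytoplasmic face 2 of 3 members were lower and 1 was higher. Nup88 had 46.8, 45.6 and 44.9 CPM in adult samples and 86.5, 84.2, 83.6 and 91.3 CPM in embryonic samples, a difference of -0.82 ± 0.07 (SE, limma adjusted p = 1.51e-07). Its binding partner Nup214 differed by -0.26. Ranbp2, also called Nup358, the giant protein of the cytoplasmic filaments that binds Ran and acts as a SUMO ligase, had 188 CPM, 145 CPM and 149.6 CPM in adult samples and 148 CPM, 133 CPM, 120.0 CPM and 157 CPM in embryonic samples. The CPM of the groups overlapped, because adult replicates 2 and 3 lay below embryonic replicate 4, although the deposited values, which are scaled in another way, did not. The difference of 0.29 ± 0.10 (SE, limma adjusted p = 0.0249) rested on single samples: it was not called without adult replicate 1 (0.18, adjusted p = 0.15), without embryonic replicate 2 (0.27, adjusted p = 0.0822) or without embryonic replicate 3 (0.22, adjusted p = 0.0893). It was also lost with samples centred on their medians (0.11, adjusted p = 0.381). Both nuclear basket members were lower. Nup153, which docks importins and the basket filaments, had 47.7, 44.7 and 42.7 CPM in adult samples and 94.9, 90.2, 78.7 and 104 CPM in embryonic samples, a difference of -0.93 ± 0.09 (SE, limma adjusted p = 6.52e-07), and Nup50, which helps to release cargo from importin alpha, differed by -0.36.

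Over all 22 nucleoporins, 20 were lower (90.9%, against 33.9% of all genes tested) and 1 was higher (4.55%, against 35.8%). The median difference was -0.98. Summed over them, reads fell to 620.3 ± 26.1 CPM in adult cortex, against 1109 ± 60.6 CPM in embryonic cortex (SD, n = 3 and n = 4).

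**Figure D2:**
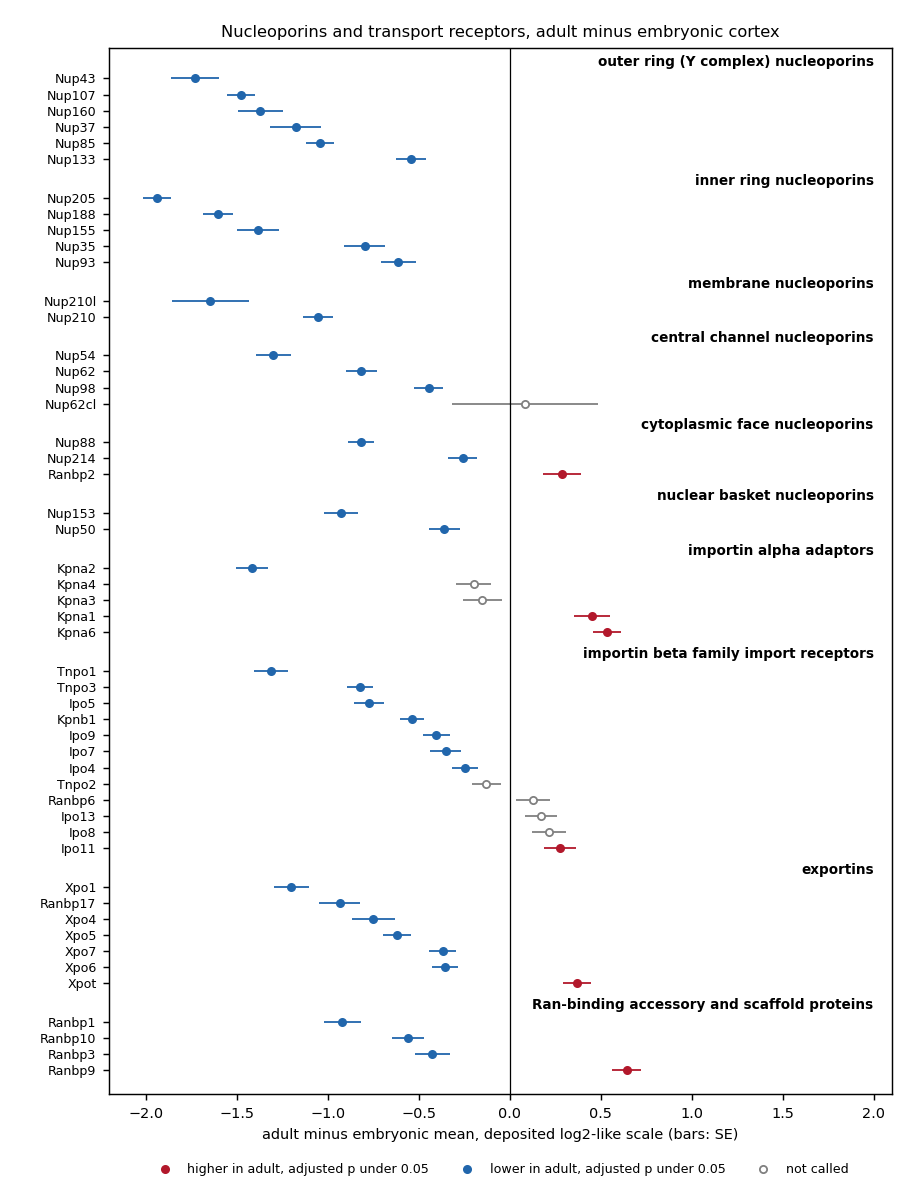
Adult minus embryonic difference on the deposited log2-like scale (horizontal axis, point with SE) for each of the 50 members tested, in blocks by role. The blocks of the outer ring, inner ring and membrane nucleoporins lie wholly below 0, and the 6 higher members (Ranbp2, Kpna1, Kpna6, Ipo11, Xpot and Ranbp9) are spread over 5 blocks.

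Of the 24 transport receptors tested, 14 were lower (58.3%, against 33.9% of all genes tested) and 4 were higher (16.7%, against 35.8%), with a median difference of -0.35. They summed to 2073 ± 63.7 CPM in adult and 2839 ± 106 CPM in embryonic cortex (SD, n = 3 and n = 4).

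The importin alpha adaptors changed in opposite directions, with 1 lower, 2 higher and 2 not called of the 5 tested. Kpna2, the importin alpha known from dividing and pluripotent cells, had 14.3, 15.3 and 14.5 CPM in adult samples, against 40.8, 47.5, 41.5 and 41.8 CPM in embryonic samples. The groups were well apart, and the difference was -1.41 ± 0.09 (SE, limma adjusted p = 4.06e-09), a 2.92-fold lower mean. Kpna1, also called importin alpha 5 and known from mouse embryonic stem cells to take over from Kpna2 during neural differentiation, had 123 CPM, 111 CPM and 106 CPM in adult samples and 88.2, 82.0, 77.6 and 105 CPM in embryonic samples. Embryonic replicate 4 came close to the lowest adult sample, and the difference was 0.45 ± 0.10 (SE, limma adjusted p = 0.000937). Kpna6, importin alpha 7, had 113 CPM, 99.8 CPM and 95.2 CPM in adult samples and 75.7, 70.6, 73.8 and 78.4 CPM in embryonic samples, a difference of 0.54 ± 0.08 (SE, limma adjusted p = 3.03e-05) with all adult values above all embryonic values.

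Kpna3, a brain-rich importin alpha, had 100.4 CPM, 81.3 CPM and 76.4 CPM in adult samples and 101.3 CPM, 96.5 CPM, 88.7 CPM and 118 CPM in embryonic samples, and was not called (-0.15 ± 0.11, SE, limma adjusted p = 0.229). Kpna4, its close paralog and an adaptor of NF-kappa-B in other cells, had 102 CPM, 80.4 CPM and 84.9 CPM in adult samples and 108.4 CPM, 107.5 CPM, 94.7 CPM and 123 CPM in embryonic samples (-0.20 ± 0.10, SE, limma adjusted p = 0.0874). For both, adult replicate 1 lay inside the embryonic range, and without it both were called lower, at -0.26 (adjusted p = 0.0459) for Kpna3 and -0.29 (adjusted p = 0.0195) for Kpna4. Without embryonic replicate 3, which held the lowest embryonic value of both, Kpna4 was also called lower (-0.26, adjusted p = 0.0388). With samples centred on their medians both were called lower, at -0.33 (adjusted p = 0.0130) for Kpna3 and -0.38 (adjusted p = 0.00345) for Kpna4. Kpna7, an importin alpha of oocytes and early embryos, had no reads in adult replicate 1 and 2 reads and 1 read in the other two adult samples, and 0 reads in every embryonic sample. A count of 0 there allows up to 0.163 CPM in the shallowest embryonic sample, which covers counting error only, and Kpna7 was not tested.

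As a share of all importin alpha RPKM, Kpna2 made up 8.08% ± 0.941 in adult and 20.8% ± 2.23 in embryonic cortex (SD, n = 3 and n = 4). Kpna1 held 21.0% ± 0.477 in adult and 14.4% ± 0.837 in embryonic cortex, and Kpna6 held 23.9% ± 0.346 in adult and 15.4% ± 0.968 in embryonic cortex. For these 3 genes no adult share overlapped an embryonic one. Kpna3 held 31.3% ± 1.43 in adult and 32.6% ± 1.47 in embryonic cortex and Kpna4 held 15.6% ± 0.790 in adult and 16.8% ± 0.472 in embryonic cortex. By the listed reads Kpna2 was the scarcest of the 5 per length in every adult sample, while in each embryonic sample it ranked second, after Kpna3. By CPM it was the lowest of the 5 in every sample, so its embryonic rank depends on the exon lengths used. These shares and ranks use only the reads listed for Kpna2, and 2 near-identical copies of it were each listed with more reads (21.5 CPM in adult and 62.4 CPM in embryonic cortex on average), so they are uncertain if reads were split between the copies. Shares of 1 whole are linked, so a lower share of Kpna2 raises those of the others.

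**Figure D3:**
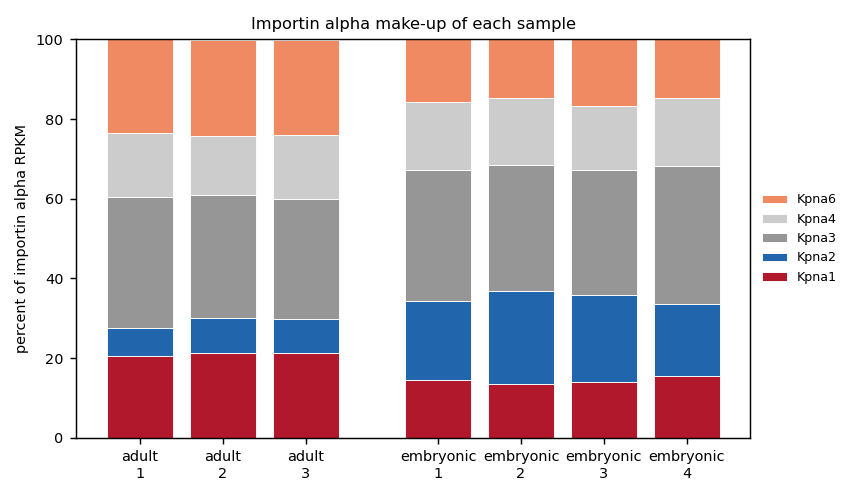
Stacked bars of the percent of importin alpha RPKM held by each gene (vertical axis) in each adult and embryonic sample (horizontal axis). Kpna2 takes 7.0% to 8.70% of the adult bars and 18.2% to 23.2% of the embryonic bars, and Kpna7, at up to 0.0442%, is not drawn. Reads listed under copies of Kpna2 are not included.

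In the importin beta family 7 of 12 members were lower, 1 was higher and 4 were not called, with a median difference of -0.30. Tnpo1, the transportin that imports hnRNP proteins with a proline-tyrosine signal, led this group with 78.8, 61.5 and 75.0 CPM in adult samples against 192 CPM, 194 CPM, 168 CPM and 205 CPM in embryonic samples. No adult value came near an embryonic value, and the difference was -1.31 ± 0.09 (SE, limma adjusted p = 1.82e-08), a 2.65-fold lower mean. Its close relative Tnpo2 was not called (-0.13 ± 0.08, SE, limma adjusted p = 0.182), at 178 ± 11.8 CPM in adult and 207 ± 15.3 CPM in embryonic cortex (SD, n = 3 and n = 4). With samples centred on their medians Tnpo2 was called lower as well (-0.31, adjusted p = 0.00430). So it was in voom on the totals (-0.21, adjusted p = 0.0245) and with a block by replicate number (-0.17, adjusted p = 0.0396). The Tnpo1 to Tnpo2 ratio per length was 0.226 ± 0.0327 in adult and 0.519 ± 0.0773 in embryonic cortex (SD of the RPKM ratio, n = 3 and n = 4), in a pair chosen after the values were seen. Tnpo2 exceeded Tnpo1 per length in every sample. By CPM it did not in embryonic replicate 4 (189 CPM for Tnpo2 and 205 CPM for Tnpo1), so that rank depends on the exon lengths used.

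Tnpo3, the importer of serine-arginine splicing factors, differed by -0.82, and Ipo5, a receptor of ribosomal proteins and histones, by -0.77. Kpnb1, importin beta itself and the partner of all importin alphas, differed by -0.54 and stayed the most abundant member per length in both groups, at 32.5 ± 0.368 RPKM in adult and 50.1 ± 2.01 RPKM in embryonic cortex (SD, n = 3 and n = 4). Smaller differences were measured for Ipo9 (-0.40), Ipo7 (-0.35) and Ipo4 (-0.25), which carry ribosomal proteins or histones among other cargo. Ipo11, an importer of ubiquitin-conjugating enzymes, had 59.1, 50.2 and 48.6 CPM in adult samples and 47.5, 46.2, 41.7 and 48.1 CPM in embryonic samples. Adult replicate 3 lay just above embryonic replicate 4, and the call (0.28 ± 0.09, SE, limma adjusted p = 0.0127) was lost without adult replicate 1 (0.20, adjusted p = 0.0775) and after centring every sample on its median (0.09, adjusted p = 0.356). Ranbp6 (0.13), Ipo13 (0.17), which works in both directions, and Ipo8 (0.22, limma adjusted p = 0.0534) were not called. Ipo13 was called higher without adult replicate 1 (0.27, adjusted p = 0.0144), Ipo8 without adult replicate 2 (0.26, adjusted p = 0.0428) or embryonic replicate 4 (0.28, adjusted p = 0.0177) and in voom with median-of-ratios factors (0.22, adjusted p = 0.0490), and Ranbp6 without embryonic replicate 4 (0.20, adjusted p = 0.0322).

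Among the 7 exportins 6 were lower and 1 was higher, with a median of -0.62. Xpo1, also called CRM1, the general exporter of proteins with a leucine-rich signal, had 94.7, 77.6 and 75.0 CPM in adult samples, against 206 CPM, 192 CPM, 180.1 CPM and 229 CPM in embryonic samples. The highest adult value was far below the lowest embryonic value, and the difference was -1.20 ± 0.10 (SE, limma adjusted p = 7.03e-08), a 2.45-fold lower mean. The exporter of tRNA, Xpot, went the other way, with 73.3, 68.8 and 64.6 CPM in adult samples and 55.5, 55.7, 52.8 and 61.5 CPM in embryonic samples (0.37 ± 0.08, SE, limma adjusted p = 0.000861). Per length, Xpo1 stood at 1.0 ± 0.0731 times Xpot in adult and at 3.0 ± 0.142 times Xpot in embryonic cortex (SD of the RPKM ratio, n = 3 and n = 4), again a pair chosen after its values were seen. The remaining exportins differed by -0.93 (Ranbp17), -0.75 (Xpo4), -0.62 (Xpo5, the exporter of precursor microRNAs), -0.37 (Xpo7, the paralog of Ranbp17) and -0.36 (Xpo6, the exporter of actin). Ranbp17 and Xpo4 were scarce, at 0.512 and 0.647 RPKM in adult and 1.1 and 1.2 RPKM in embryonic cortex.

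Of the 4 Ran-binding accessory or scaffold proteins 3 were lower and 1 was higher. Ranbp1, which helps RanGAP to turn off Ran in the cytoplasm, had 35.7, 34.9 and 27.7 CPM in adult samples and 71.4, 65.1, 68.2 and 60.1 CPM in embryonic samples. The groups did not overlap, and the difference was -0.92 ± 0.10 (SE, limma adjusted p = 1.83e-06). Ranbp10 differed by -0.56 and Ranbp3, a cofactor of Xpo1, by -0.43. Ranbp9, a scaffold of a ubiquitin ligase complex rather than a transport receptor, had 84.4, 71.5 and 80.1 CPM in adult samples against 52.6, 54.0, 49.0 and 56.7 CPM in embryonic samples. Its difference of 0.64 ± 0.08 (SE, limma adjusted p = 7.13e-06) was the largest among the higher members, a 1.48-fold higher mean, whereas its paralog Ranbp10 was lower.

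**Figure D4:**
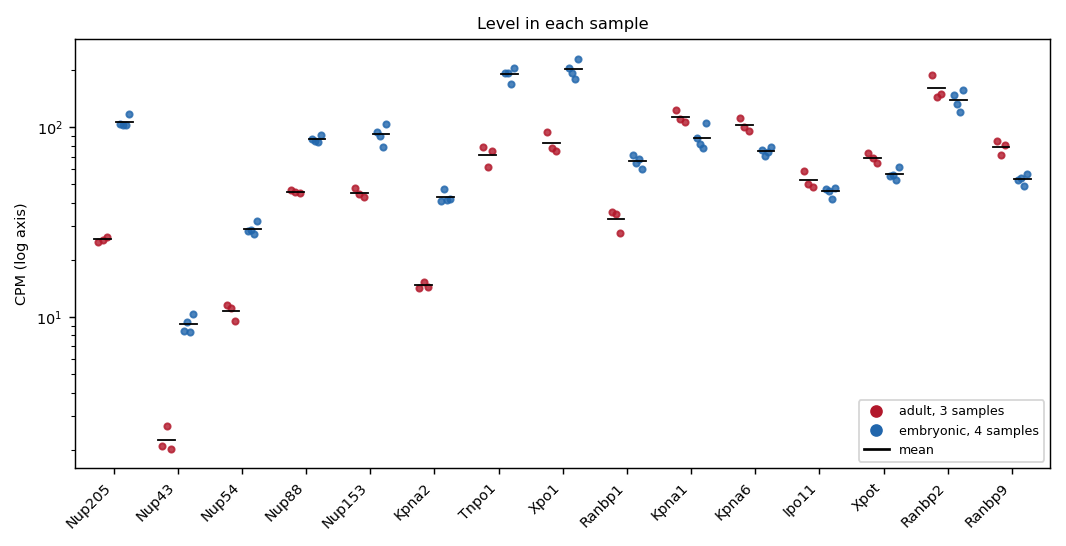
CPM on a log axis (vertical) for 15 members (horizontal axis), with 1 point per sample, adult on the left and embryonic on the right of each pair, and a line at the mean. Adult points lie below all embryonic points for the 9 genes from Nup205 to Ranbp1 and mostly above them for the 6 from Kpna1 to Ranbp9, with overlap for Ranbp2.

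Other genes of the pore and of the Ran cycle have symbols that the rule does not take. Of 30 such genes in the table, 21 were lower (70.0%, against 33.9% of all genes tested) and 6 were higher (20%, against 35.8%) in adult cortex, with a median difference of -0.59. The lower ones with the largest differences were Lmnb1 (-4.41 ± 0.08, SE), a lamin of the nuclear lamina, Thoc4 (-1.31 ± 0.11, SE), an mRNA export adaptor, and Lmnb2 (-1.29 ± 0.09, SE), the other B-type lamin. Of the membrane nucleoporins on this list, Tmem48, now named Ndc1, was lower (-0.64 ± 0.10, SE) and Pom121 was not called (0.03 ± 0.09, SE). Lmnb1 averaged 12.9 ± 0.854 CPM in adult and 308 ± 20.7 CPM in embryonic cortex (SD, n = 3 and n = 4). The higher ones with the largest differences were Ranbp3l (2.94 ± 0.21, SE), Lmna (1.86 ± 0.12, SE), which encodes the A-type lamins and is known to be high in most nondividing tissues, and Rangrf (1.58 ± 0.64, SE, limma adjusted p = 0.0425). Rangrf had at most 4 reads in any sample and 0 in 3 of the embryonic samples, its groups overlapped, and its call was lost in 9 of 13 alternatives, among them leaving out adult replicate 2 or 3 or embryonic replicate 1, 3 or 4 (adjusted p up to 0.135). Ran itself was lower (-0.44 ± 0.07, SE), at 139 ± 2.43 CPM in adult and 202 ± 9.0 CPM in embryonic cortex, while Rangap1, the activator of its GTPase, was higher (0.78 ± 0.09, SE), at 266 ± 24.1 CPM in adult and 164 ± 11.2 CPM in embryonic cortex (SD, n = 3 and n = 4). Ran and Rangap1 were singled out after their values were seen.

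Within the embryonic group the extreme values of the members often fell in the same samples. On the deposited scale embryonic replicate 3 held the lowest of the 4 embryonic values for 30 of the 50 members (60%), against 25.7% of all genes tested, and embryonic replicate 4 the highest for 24 (48.0%), against 26.2%. The dividing cell markers summed to 536 CPM, 588 CPM, 401 CPM and 463 CPM in embryonic replicates 1 to 4, so replicate 3 was lowest there too, while replicate 4, often highest among the members, was second lowest. Without embryonic replicate 3, 38 members were lower and 5 were higher in adult cortex, so the counts did not rest on it. In the adult group no sample held the lowest value for more than 19 members, and adult replicate 3 held the highest for 21 (42.0%, against 33.8% of all genes tested).

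Exon tables were available for 38 members, with 761 exons, and 36 of these genes could be tested for a change in how reads are spread over exons. In the deposited exon table each value stands for a gene's reads divided by the exon's reads, so shares are given here as the percent of the gene's reads that touch the exon. By limma's diffSplice, 10 of the 36 genes (27.8%) had a changed exon, against 28.2% of all genes tested, so members with a changed exon were about as frequent as in the table as a whole. When every exon kept its own variance, an alternative added after the data were seen, 1 of 36 was called (2.78%), against 8.88% of all genes tested. That gene was Tnpo2.

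The exon of Tnpo2 listed at chr8:87561067 (mm9, the build named in the submitters' processing notes), the second of 21 listed from the start of the gene, took 1.67%, 1.96% and 1.1% of the gene's reads in adult samples, against 0.163%, 0.103%, 0.169% and 0.0976% in embryonic samples. Every adult share was above every embryonic share, on about 48 to 81 exon reads per adult sample and 4 to 8 per embryonic sample (limma diffSplice, exon adjusted p = 2.07e-11, and 0.00266 with its own variance). The total level of Tnpo2 was not called, with the exceptions given above. Ipo9 showed the opposite pattern at the tenth of 25 listed exons by position (chr1:137288332, mm9), with 0.0769%, 0.0497% and 0.110% in adult samples and 0.412%, 0.412%, 0.410% and 0.368% in embryonic samples, on 2 to 5 adult and 19 to 24 embryonic reads (exon adjusted p = 5.66e-08, and 0.0352 with its own variance, where the call for the gene as a whole was lost at adjusted p = 0.0983). In Xpot the eighth of 20 listed exons by position (chr10:121043297, mm9) held 0.0836% ± 0.0345 of reads in adult and 0.554% ± 0.275 in embryonic cortex (SD, n = 3 and n = 4), but on only 1 to 2 adult and 3 to 9 embryonic reads.

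The shares overlapped between the groups for the exons named in the other two genes. In Xpo1 the first of 26 listed exons (chr11:23156041, mm9) had 3.41% ± 1.40 in adult and 2.14% ± 0.596 in embryonic cortex, and in Nup133 the eighth of 26 (chr8:126438398, mm9) had 6.53% ± 0.241 in adult and 4.05% ± 2.07 in embryonic cortex (SD, n = 3 and n = 4). Neither was called when exons kept their own variance (gene adjusted p = 0.524 for Xpo1 and 0.301 for Nup133). The count of 10 genes also depended on single samples, with 5 genes without embryonic replicate 3 or 4 or adult replicate 2, 6 without adult replicate 1 and 3 without embryonic replicate 2.

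**Figure D5:**
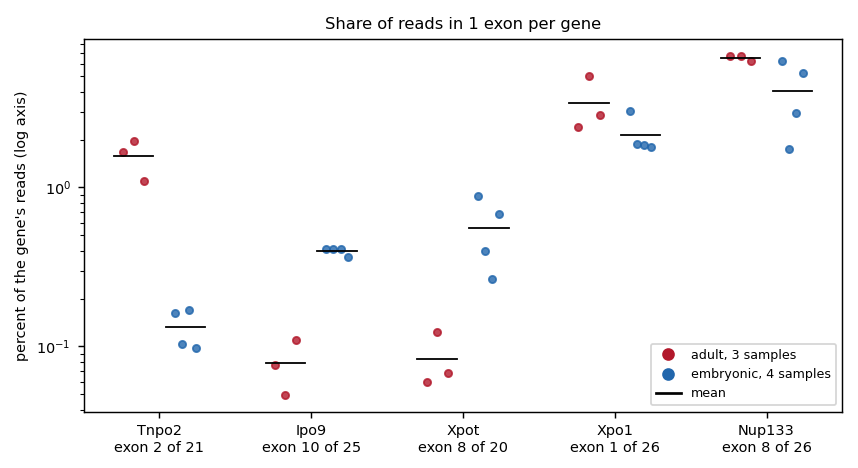
Percent of the gene's reads in 1 exon (vertical, log axis) for the 5 members with the smallest adjusted p for a changed exon (horizontal axis), numbered by position along the chromosome, with 1 point per sample, adult on the left, and a line at the mean. The groups are apart for Tnpo2, Ipo9 and Xpot and overlap for Xpo1 and Nup133.

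Sequence around the gene start of the members was examined because most of them were lower together. RefSeq promoters (GRCm38.p6, 250 bases before to 50 after the gene start) were found for 40 of the 51 members. Motifs were searched on both strands, overlaps with other motifs allowed. TTTNNCGC is a loose pattern that takes in E2F-type elements of genes active in the cell cycle. It was in 7 of the 40 (17.5%), against 5.93% of 27025 genes. These were Nup155, Nup205, Nup210, Nup54, Ipo11, Ipo7 and Ranbp1. In Nup155, Nup205, Ipo11 and Ipo7 the match began after the gene start. Of the 7 members with TTTNNCGC, 6 were lower in adult cortex and Ipo11 was higher, while 74.0% of all members tested were lower. TTTGAA, the core of the CHR element of late cell cycle genes, was in 8 members (20%), against 20.2% of genes, and CCAAT in 21 (52.5%), against 41.1%. A match is a description of letters in this window and not a site or a cause.

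The 200 bases before the start of 4 members are shown 5′ to 3′ with matches in capitals. They are Nup210, Kpna2 and Ranbp1, which were lower in adult cortex and hold at least 1 of the motifs, and Ranbp9, the member with the largest positive difference. They were chosen after their values were seen.
Nup210, chr6:91116827-91117026, minus strand: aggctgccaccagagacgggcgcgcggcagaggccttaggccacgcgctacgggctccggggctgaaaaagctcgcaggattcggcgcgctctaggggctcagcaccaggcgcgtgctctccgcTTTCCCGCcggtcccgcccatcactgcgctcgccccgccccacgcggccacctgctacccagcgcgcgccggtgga
Kpna2, chr11:106999526-106999725, minus strand: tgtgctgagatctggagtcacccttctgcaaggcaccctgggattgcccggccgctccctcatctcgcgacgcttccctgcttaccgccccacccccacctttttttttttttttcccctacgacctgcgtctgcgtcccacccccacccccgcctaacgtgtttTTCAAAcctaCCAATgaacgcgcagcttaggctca
Ranbp1, chr16:18248695-18248894, minus strand: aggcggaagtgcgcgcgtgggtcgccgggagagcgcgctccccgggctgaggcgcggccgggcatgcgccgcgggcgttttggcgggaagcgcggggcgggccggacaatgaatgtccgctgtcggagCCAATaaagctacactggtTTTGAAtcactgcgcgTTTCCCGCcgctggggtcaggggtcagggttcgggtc
Ranbp9, chr13:43480974-43481173, minus strand: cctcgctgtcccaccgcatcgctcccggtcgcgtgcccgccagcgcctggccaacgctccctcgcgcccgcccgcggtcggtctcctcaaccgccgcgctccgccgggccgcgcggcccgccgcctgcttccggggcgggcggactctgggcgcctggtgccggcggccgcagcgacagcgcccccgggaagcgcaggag
Nup210 holds TTTCCCGC once. Ranbp1 holds the same 8 letters close to its start, with TTTGAA and CCAAT further upstream. Kpna2 holds CCAAT beside TTCAAA, which is TTTGAA read on the other strand, and a second CCAAT lies after the start, outside the bases shown. Ranbp9 holds none of the 3 motifs in this window. Over the whole stretch searched, the lower members Nup107, Nup133 and Nup188, among others, hold none of them either. Of the other higher members, Ranbp2 and Xpot hold none, while Ipo11 holds TTTNNCGC and CCAAT. For Kpna1 and Kpna6, also higher, no promoter was found, so they were not searched. Whether the motifs go with the direction of the difference was not tested.

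Some members share sequence with other genes, so their reads may be split or doubled. Kpna2 has 5 near-identical gene copies in GENCODE M21, the closest being Gm10184 (99.9% identity over 1968 bases). Gm10184 and another copy, Gm10259, had identical reads in every sample, at 21.5 ± 1.08 CPM in adult and 62.4 ± 4.47 CPM in embryonic cortex (SD, n = 3 and n = 4). The value of Kpna2 is therefore uncertain as a level. Both copies were lower in adult cortex, but with identical reads they count as 1 value, and whether these reads came from Kpna2 was not tested. Tnpo1 has 1 copy, Gm6493 (97.3% identity over 2656 bases), at 9.49 ± 0.786 CPM in adult and 27.7 ± 3.96 CPM in embryonic cortex, and Nup54 has 1, Gm15790, at 4.73 ± 0.555 CPM in adult and 12.2 ± 1.57 CPM in embryonic cortex (SD, n = 3 and n = 4). Nup35, Xpo4 and Xpot have 1 such copy each. Use of strand in counting is not stated, and where a gene on the opposite strand overlaps a member its reads cannot be told apart from the member's, as for Tnpo2 (10.6% of its exon length, A230103J11Rik), Nup133 (10.4%), Ranbp9 (8.83%, Nol7), Nup188 (7.88%) and Kpnb1 (7.07%). On the same strand, Ipo4 shares 55.3% of its exon length with the annotated gene Gm49378 and Ranbp1 16.9% with Gm49776.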

How the data were processed

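The submitters' processing notes list, giving no roles, the build mm9 and the tools Bowtie 0.12.7.0, TopHat 1.0.13, SAMtools 0.1.7a, HTSeq 0.5.3p3 and CASAVA 1.7.1. The gene values deposited by the authors are variance-stabilized and log2-like, with 1 scale per sample. Their tool is not named in these sources. The exon values deposited by the authors are a variance-stabilized score of 1 over a ratio, per the file headers.

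Each gene column is a smooth function of whole numbers, so read counts were recovered from its steps, with at least 99.9% of values within 0.1 of a whole number in every sample. The first 200 steps were taken as consecutive counts. CPM and RPKM come from these counts and describe levels only, with exon lengths from GENCODE M21. Recovered exon numbers were taken as gene reads over exon reads. Given the recovered gene counts, 97.6% to 98.6% of 2934 to 3544 exon values per sample could be reached by whole exon reads, against 0.985% to 1.57% after the gene counts were moved. Exon shares are 100 divided by that number.

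Tests used the deposited values in limma 3.58.1 under R 4.3.3 (lmFit, eBayes with a mean-variance trend, diffSplice with the Simes test per gene), two-sided, over all genes, with Benjamini-Hochberg adjustment at 0.05 and no covariate. A gene at the lowest value in over 3 of the 7 samples was not tested. The scripts were tested on simulated data. Chi-square over degrees of freedom was 5.11 to 19.0 between same-group samples, more than counting gives, so none was merged. Alternatives were no filter, centring, no trend, voom on recovered counts with 2 scalings, a replicate block, leaving out each sample and, added later, a separate variance per exon. Copies were sought with BLAST 2.17.0 at a minimum of 95% identity over 300 bases.

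Values in every sample are given for the members with the largest called difference in each direction within a role, for every importin alpha and for the 3 largest differences in each direction over all members. Of the other pore genes the 3 largest in each direction are named, and exons of at most 5 called members with the smallest adjusted p. The members and all gene lists, roles, motifs and markers were chosen with earlier results of these data known. Duplicate reads remain, and counts are reads, not molecules. Protein sequences were not used here.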

Additional observations from a re-analysis of the deposited data

Results flagged for a closer look

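In the embryonic group 2 members had 1 sample set apart from the other three by Dixon's criterion, which chance meets in about 1 of 20 groups, so a few such samples are to be met among 50 members. Kpna2 had 47.53 CPM in embryonic replicate 2, against 40.8 to 41.8 CPM in the other embryonic samples. Nup205 had 117.2 CPM in embryonic replicate 4, against 103 to 104 CPM in the others. In both genes the sample set apart lay further from the adult values, and neither call was lost when it was left out.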

How the results depend on the processing

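Over the alternatives run, members lower in adult cortex numbered 37 to 40 and members higher 4 to 8, against 37 and 6, and no member changed direction with a call. Of all genes called, the share that was higher ran from 43.6% (samples centred) to 52.7% (without embryonic replicate 1), against 51.4%. Without the filter, with samples centred, without the trend and in voom on totals, the higher cytoplasmic face member (Ranbp2, 1 as reported) was lost, giving 0, and leaving out 1 sample gave 0 to 1. Higher importin beta family members numbered 0 with centring and voom on totals and 2 in voom with median-of-ratios factors, against 1, with 1 to 3 over the samples left out. Lower importin alpha adaptors numbered 3 with centring and 2 in voom on totals, against 1, with 1 to 3 over the samples left out. Member genes with a changed exon numbered 10 as reported, 1 with a separate variance per exon and 3 to 13 with 1 sample left out, and the causes were not tested. The labels do not say whether a shared replicate number marks anything. In their deviations from the group means, same-numbered samples correlated at 0.0088, 0.057 and 0.041. Adult replicates 2 and 3 each correlated best with the embryonic sample of the same number, and adult replicate 1 with embryonic replicate 4 (0.062). All other differently numbered pairs correlated negatively, from -0.047 to -0.0032. Whether same-numbered samples share a batch was not tested. With the replicate block 38 members were lower and 8 higher, 3 importin beta family members were higher, and 5 genes had a changed exon. Embryonic replicate 4 has no adult partner, so the block also takes it out of the comparison, and leaving it out without the block gave the same counts of higher members (8), higher importin beta family members (3) and genes with a changed exon (5). Tnpo2 was called lower (-0.17) and Ipo8 (0.28) and Ranbp6 (0.20) higher with the block. Voom on recovered counts gives no exon value, so it was not run for exons. Genes with few reads, such as Nup62cl and Kpna7, are limited by depth.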
